A study of Mus musculus with 6 samples.

Results

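Interferon-stimulated genes encode the proteins by which a cell resists viruses, and this account follows 40 of them in dendritic cells taken from tumours. The 40 were chosen by gene symbol as effectors of the type I interferon response: the Ifit, Oas, Mx, Parp, Trim30 and Phf11 families, the ISG15 system and a set of membrane and nuclear proteins. All 40 had a row among the 26519 genes of the count table and all 40 passed the filter on low counts, which 12580 genes passed. RNA sequencing was done on tumour-infiltrating dendritic cells in 6 samples. The hosts were wild-type for 3 of them and lacked MAVS (labelled MAVS knockout) for the other 3. All hosts carried tumours of MC38, a mouse colon carcinoma line, collected on day 10 after inoculation. The strain, age and sex of the hosts, the gate used to isolate the cells, the part of Mavs that was deleted and whether the replicates came from separate animals are not stated in the labels. The p-values therefore reflect no more than the spread among these libraries, which may be technical.

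Type I interferons bind the receptor made of IFNAR1 and IFNAR2, which activates the kinases JAK1 and TYK2. These phosphorylate STAT2, which acts with IRF9 in a complex that binds the interferon-stimulated response element in promoters and switches on the genes described here. MAVS sits one step earlier: it is the mitochondrial adaptor through which the RNA sensors RIG-I and MDA5 call up interferon synthesis. Dendritic cells both make and sense type I interferon, and in tumours this response is known to help them prime T cells.

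Mavs was the targeted gene and was lower in each knockout library. Its levels were 33.9, 39.6 and 39.6 counts per 1000000 (CPM, scaled by the trimmed mean of M values) in the wild-type libraries and 8.97, 12.8 and 9.44 CPM in the knockout libraries, and the difference was -1.86 on the log2 scale (SE 0.18, edgeR adjusted p = 0.0017). Library totals were 14466640 to 20851733 counts. Of 6 markers of conventional dendritic cells 2 were lower in the knockout libraries and 3 had a log2 fold change above 0. The summed list stood at 29880 to 36630 CPM in the wild-type group against 33200 to 43110 CPM, nearly all of it the antigen presentation genes Cd74 and H2-Ab1. The integrin Itgax stood at 217 to 272 against 274 to 317 CPM and did not pass (log2 fold change 0.25, SE 0.12). Flt3 (34.0 to 73.2 CPM in wild-type, 10.8 to 15.4 CPM in knockout libraries) and Zbtb46 (15.3 to 27.5 and 6.95 to 10.8 CPM) were the lower genes. The summed level of 10 macrophage markers was 25480 to 30610 against 26900 to 34590 CPM. Without Lyz2, its most abundant gene, it was 6200 to 7057 against 7342 to 7956 CPM. None of the 10 passed and 7 had a log2 fold change above 0, while Apoe (-0.84) was lower in each knockout library. In wild-type libraries the macrophage genes C1qb and Adgre1 averaged 2149 and 72.4 CPM, against 49.85 CPM for Flt3 and 20.05 CPM for Zbtb46. The share of macrophages in the samples was not tested. In bulk samples such as these, fewer cells of a type and less RNA per cell cannot be told apart.

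Near the start sites of these genes the DNA often carries the interferon-stimulated response element, and the windows that hold it are shown because 16 members share it. Its core was searched as TTTC, any 2 bases, then TTTC, on both strands, so that the opposite strand reads GAAA, any 2 bases, GAAA. RefSeq promoters of 300 bases (GRCm38.p6, the mm10 build) were at hand for 31 members, and 16 of these (51.6%) held at least 1 match. Among all 27025 genes with a promoter of that length, 3.99% did. Of the members, 8 held 2 or more matches, against 0.266% of all genes. The windows below run 5′ to 3′ on the strand of the gene, with the matches in capitals. They lie at chr12:26456543-26456592 for Rsad2 (minus strand), chr19:34640765-34640833 for Ifit1 (plus strand), chr19:34583353-34583436 for Ifit3 (plus strand), chr19:34607749-34607832 for Ifit3b (plus strand), chr5:120907510-120907565 for Oas1a (minus strand), chr5:120887596-120887651 for Oas1g (minus strand) and chr4:156200855-156200916 for Isg15 (minus strand).
Rsad2: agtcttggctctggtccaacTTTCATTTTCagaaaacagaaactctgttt
Ifit1: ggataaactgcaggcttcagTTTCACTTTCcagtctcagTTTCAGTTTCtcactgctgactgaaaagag
Ifit3: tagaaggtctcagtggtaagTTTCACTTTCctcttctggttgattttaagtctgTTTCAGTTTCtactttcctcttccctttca
Ifit3b: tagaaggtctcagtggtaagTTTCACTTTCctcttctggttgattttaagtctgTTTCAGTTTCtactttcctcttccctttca
Oas1a: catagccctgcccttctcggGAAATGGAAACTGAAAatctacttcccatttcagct
Oas1g: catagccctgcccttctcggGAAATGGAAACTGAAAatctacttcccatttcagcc
Isg15: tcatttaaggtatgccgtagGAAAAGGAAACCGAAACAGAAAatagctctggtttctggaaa

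The paired windows show how alike the recent gene copies are. Those of Ifit3 and Ifit3b were identical over 84 bases, and those of Oas1a and Oas1g differed at 1 of 56. In Isg15 3 matches overlapped in 1 run, whereas Ifit1 held 2 separate matches. The gamma-activated site, an element of interferon-gamma responses, was searched as TTCNNNGAA and was found in 7 of the 31 members (22.6%) and in 9.55% of all genes. Matches of the 2 motifs overlapped in Bst2 and Ifitm3. Ifit2, Cmpk2, Parp12, Ifi47, Xaf1, Herc6, Lgals3bp, Samd9l, Dtx3l, Oasl1, Oasl2, Phf11d, Ifi35, Ifi44 and Isg20 had no match to the response element core. This says only that these letters are not in their promoters. A match is a description of the sequence and not a measured binding site.

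**Figure D1:**
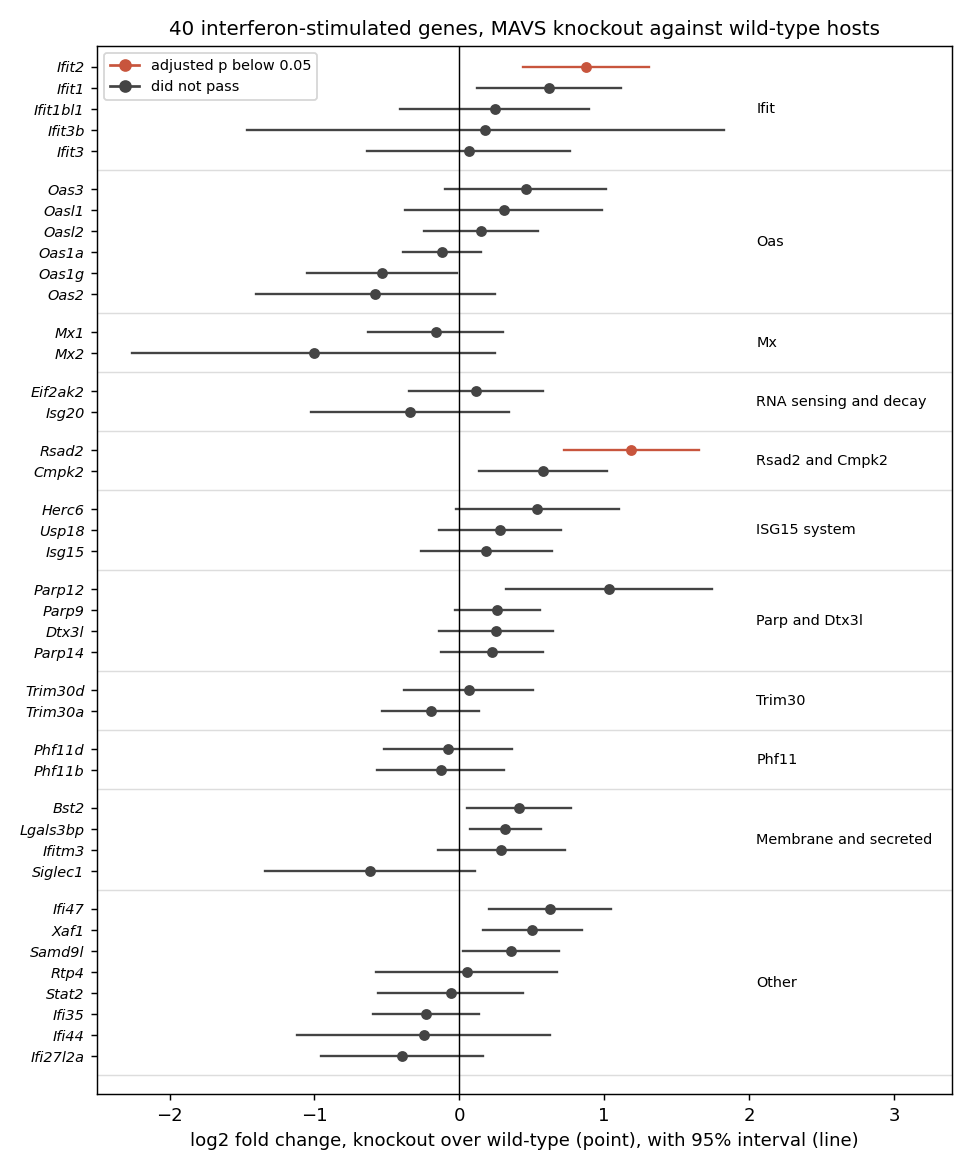
Log2 fold change of each of the 40 genes in knockout over wild-type libraries (x axis), with points for the estimate, lines for its 95% interval, and genes grouped by family. Rsad2 and Ifit2, in red, passed the test at an adjusted p below 0.05; the other 38 did not.

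The comparison asks how the interferon response of tumour dendritic cells differed in hosts without MAVS: 2 of the 40 genes rose and none fell. The risers were Rsad2 (2.28-fold) and Ifit2 (1.83-fold). That is 5% of the members, beside 1.76% of all 12580 tested genes called higher, 1.05% called lower and 2.81% called in either direction (edgeR's quasi-likelihood test, Benjamini-Hochberg adjusted p below 0.05). At an unadjusted p below 0.05, 10 members were higher (8.46% of all genes were) and 1 was lower (7.51% of all genes were). DESeq2 and limma-voom also called no member lower. Each knockout library stood above each wild-type library for 7 members (17.5%, against 11.2% of all genes): Ifit2, Rsad2, Cmpk2, Herc6, Lgals3bp, Ifi47 and Xaf1. The reverse held for Oas1g alone (2.5%, against 10.6% of all genes). The 40 were chosen with earlier results of these data known, so these shares are descriptions.

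The median log2 fold change of the 40 was 0.18, with its middle portion from -0.14 to 0.37, beside a median of 0.00 over all tested genes, whose middle portion ran from -0.23 to 0.22. Of the members, 26 had a log2 fold change above 0 (65%), as had 49.6% of all genes. The intervals of 25 members lay within 1 log2 unit of 0 on both sides, and for 13 of the 38 genes that did not pass the interval reached a log2 fold change of 1 in size.

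Ifit proteins bind RNA, and some of them block translation of viral RNA that lacks the host's cap marks. In this family Ifit2 was the member that rose. It measured 39.5, 23.7 and 32.5 CPM in the wild-type and 52.3, 70.5 and 52.7 CPM in the knockout libraries. The groups did not overlap, and the log2 fold change was 0.87 (SE 0.20, edgeR adjusted p = 0.0443). It did not pass with library sizes alone as the scaling (edgeR adjusted p = 0.07). Ifit1, the founding cap-sensing member, measured 26.9, 14.0 and 19.8 CPM in wild-type and 26.9, 34.3 and 32.0 CPM in knockout libraries. Its lowest knockout library met its highest wild-type library, and its log2 fold change of 0.62 (SE 0.22, 95% interval 0.12 to 1.11) did not pass (edgeR adjusted p = 0.204).

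The other Ifit genes were close to 0. Ifit3, the most abundant of the family per length in wild-type cells at 8.30 CPM per kilobase of exon, measured 19.4, 11.6 and 12.4 CPM against 16.4, 20.6 and 8.41 CPM. Its groups overlapped throughout, with a difference of 0.06 on the log2 scale (SE 0.32, edgeR adjusted p = 0.953). Ifit1bl1 (0.24, SE 0.30) and Ifit3b (0.18, SE 0.74) did not pass either, and Ifit3b rested on 191 counts in all. Transcripts of Ifit3 and Ifit3b matched at 98% of 1697 aligned bases, and 51.2% of the 50-base windows of Ifit3 occur in Ifit3b, so how the counting split reads between them is uncertain. Summed as 1 gene, the pair differed by 0.08 on the log2 scale (SE 0.31, edgeR adjusted p = 0.941). The 5 genes sit together on chromosome 19 between 34550694 and 34650009 in mm10. Their summed level was 98.5, 54.3 and 74.4 CPM in wild-type and 105.8, 138.2 and 102.3 CPM in knockout libraries, a ratio of 1.52, and Ifit2 with Ifit1 made up most of it.

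**Figure D2:**
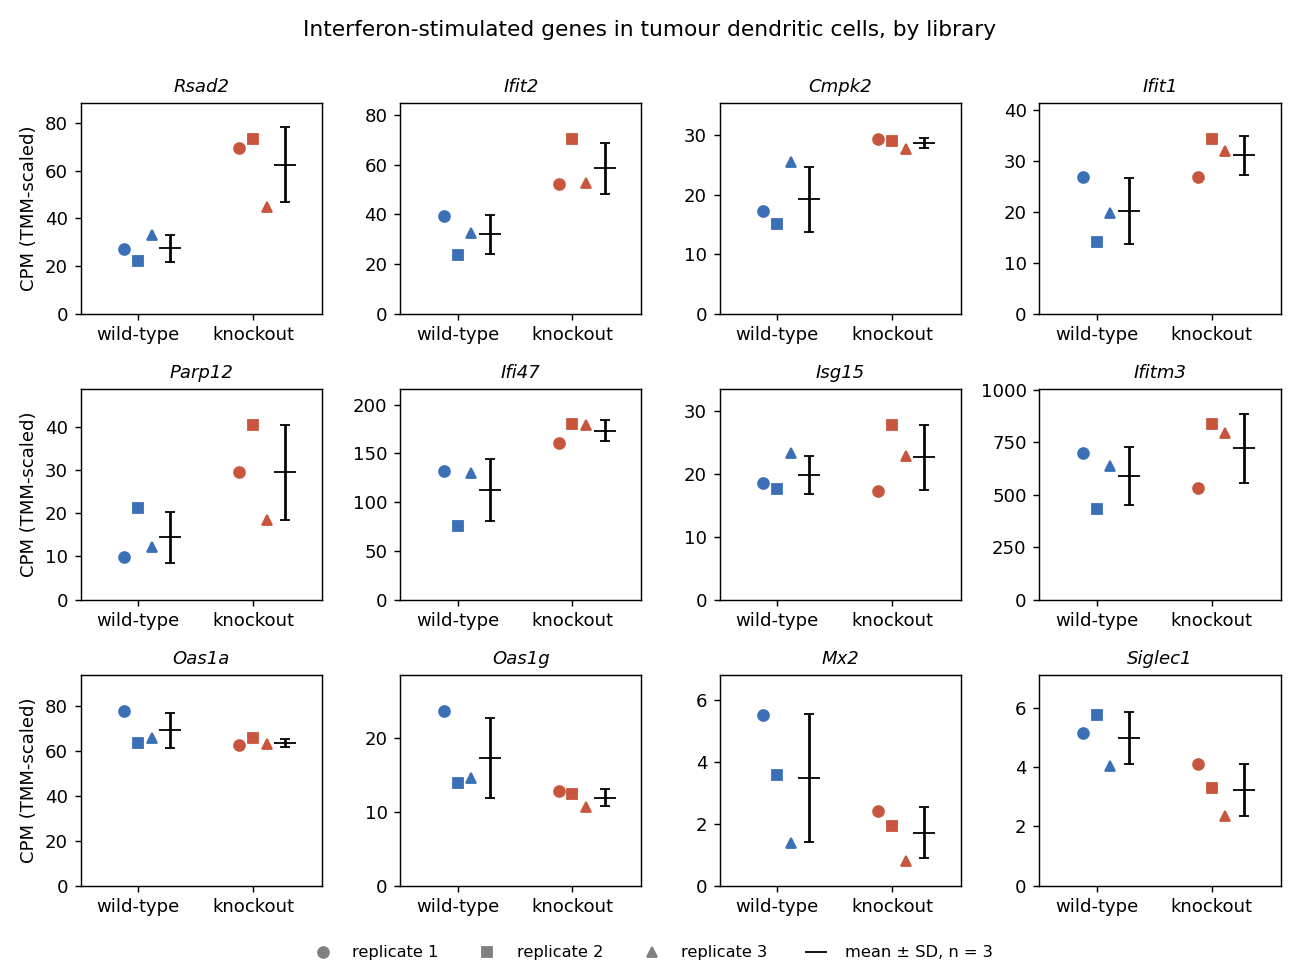
TMM-scaled CPM (y axis) of 12 members in each wild-type and knockout library, with symbols for the replicate number and bars for mean ± SD (n = 3). Rsad2, Ifit2, Cmpk2 and Ifi47 have every knockout library above every wild-type library, Oas1g has every one below, and Isg15 and Ifitm3 overlap.

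Rsad2 and Cmpk2 are neighbours on chromosome 12 (26442746 to 26479837 in mm10) and act in 1 pathway: CMPK2 phosphorylates cytidine nucleotides, and RSAD2, also called viperin, turns CTP into a chain-terminating nucleotide that stops viral polymerases. Rsad2 measured 27.0, 22.1 and 33.2 CPM in wild-type and 69.5, 73.4 and 44.5 CPM in knockout libraries. Every knockout library lay above every wild-type library, with knockout replicate 3 the lowest of its group. The log2 fold change of 1.19 (SE 0.21, 95% interval 0.72 to 1.65, edgeR adjusted p = 0.0219) was the largest of the 40. Cmpk2 measured 17.2, 15 and 25.4 CPM against 29.3, 28.9 and 27.7 CPM. The groups were apart here too, but narrowly, and the log2 fold change of 0.58 (SE 0.20) did not pass (edgeR adjusted p = 0.183). The difference between the neighbours was not tested.

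Oligoadenylate synthetases make the second messenger that activates RNase L, which degrades RNA in infected cells. None of the 6 Oas genes passed, and they divided evenly, 3 with log2 fold changes above and 3 below 0. Oas1a, the most abundant per length of the 6 at 36.8 CPM per kilobase of exon in wild-type cells, measured 78.2, 63.8 and 66.1 CPM in wild-type and 62.6, 65.8 and 63.0 CPM in knockout libraries. Wild-type replicate 1 was the highest library, and the log2 fold change was -0.12 (SE 0.12, 95% interval -0.39 to 0.15, edgeR adjusted p = 0.711). Oas1g measured 23.6, 13.9 and 14.5 CPM against 12.8, 12.4 and 10.7 CPM, the reverse order to Ifit2, and did not pass (log2 fold change -0.54, SE 0.23, edgeR adjusted p = 0.30). Oas1a and Oas1g match at 97.5% of 1860 aligned bases and share 56.9% of the 50-base windows of Oas1a, and their summed counts differed by -0.19 on the log2 scale (SE 0.13, edgeR adjusted p = 0.533).

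The larger synthetases and the Oas-like genes spread more widely. Oas2 had a log2 fold change of -0.58 (SE 0.37) and Oas3, whose product has a high affinity for long double-stranded RNA, of 0.46 (SE 0.25). Their highest libraries were on opposite sides: 15.7 CPM in wild-type replicate 1 for Oas2 and 35.3 CPM in knockout replicate 3 for Oas3. Oasl1, a translational brake on Irf7, had 0.31 (SE 0.31) and Oasl2 0.15 (SE 0.18). The family's summed level was 250, 166 and 215.8 CPM in wild-type and 194.6, 236.4 and 216.1 CPM in knockout libraries, a ratio of 1.02.

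Mx proteins are dynamin-like GTPases that trap viral nucleocapsids. Laboratory mouse strains often carry defective copies, and the annotation used here lists Mx2 as a polymorphic pseudogene. Mx1, the more abundant of the pair per length at 3 CPM per kilobase in wild-type cells, measured 13.2, 9.12 and 11.7 CPM in wild-type and 10.5, 9.58 and 10.3 CPM in knockout libraries (log2 fold change -0.16, SE 0.21, edgeR adjusted p = 0.789). Mx2 measured 5.51, 3.57 and 1.38 CPM against 2.41, 1.94 and 0.805 CPM, with overlapping groups and a wide interval of -2.26 to 0.25 around -1.0 (edgeR adjusted p = 0.44). Of the further proteins that act on RNA neither passed: Eif2ak2, the kinase PKR that halts translation on sensing double-stranded RNA, at 0.12 (SE 0.21), and Isg20, an exonuclease, at -0.34 (SE 0.31).

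Isg15 encodes a ubiquitin-like protein, Herc6 the ligase that attaches it in mice, and Usp18 the protease that removes it and also dampens signalling at the receptor. None of the 3 passed, and each had a log2 fold change above 0. Isg15, the most abundant of the system per length at 26.2 CPM per kilobase in wild-type cells, measured 18.6, 17.6 and 23.3 CPM in wild-type and 17.3, 27.7 and 22.8 CPM in knockout libraries. Its extremes were both knockout libraries, and the log2 fold change was 0.19 (SE 0.20, edgeR adjusted p = 0.738). Usp18 had 0.28 (SE 0.19) with overlapping groups. Herc6 had 0.54 (SE 0.25), from 9.94, 6.88 and 13.9 CPM to 15.9, 14.3 and 14.6 CPM, so its groups were apart although it did not pass (edgeR adjusted p = 0.334).

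The Parp genes encode ADP-ribosyltransferases, and Dtx3l a ubiquitin ligase that works in a complex with PARP9. Parp12, a zinc-finger member, had the second largest positive fold change of the 40 but did not pass. It measured 9.94, 21.2 and 12.1 CPM in wild-type and 29.4, 40.4 and 18.5 CPM in knockout libraries, with wild-type replicate 2 above knockout replicate 3 (log2 fold change 1.03, SE 0.32, edgeR adjusted p = 0.136). DESeq2's Wald test called it (adjusted p = 0.0183), as it did Ifi47 (adjusted p = 0.0238). Parp9, the most abundant of the family per length at 9.76 CPM per kilobase in wild-type cells, measured 52.6, 41.2 and 48.9 CPM against 60.3, 52.4 and 58.5 CPM (log2 fold change 0.26, SE 0.13, edgeR adjusted p = 0.382). Parp14 (0.23, SE 0.16) and Dtx3l (0.25, SE 0.18) were of like size. Parp9 and Dtx3l overlap head to head on chromosome 16 and share 458 exonic bases on opposite strands. Reads in that stretch cannot be assigned to 1 of them unless the counting used strand, a setting that the labels do not state.

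**Figure D3:**
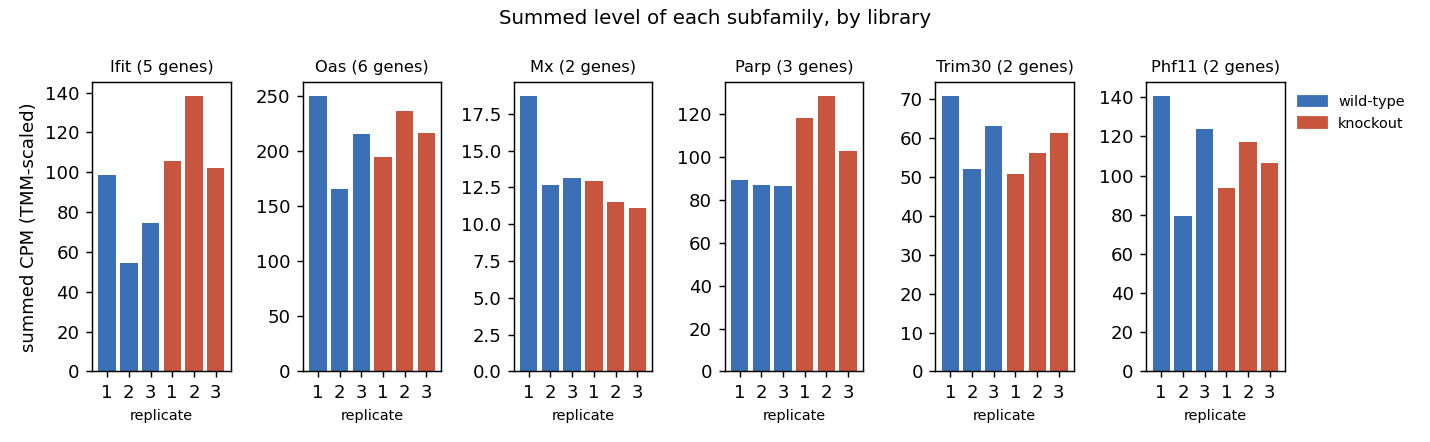
Summed TMM-scaled CPM (y axis) of the members of 6 subfamilies in each library (x axis, replicate number within genotype). The knockout bars of Ifit and Parp stand above all wild-type bars, whereas those of Oas, Mx, Trim30 and Phf11 overlap the wild-type range.

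The 3 Parp genes summed to 89.4, 86.9 and 86.6 CPM in wild-type and 118.3, 128.4 and 102.9 CPM in knockout libraries, a ratio of 1.33 to which Parp12 contributed most. Trim30a and Trim30d, ubiquitin-ligase family members of which Trim30a restrains Toll-like receptor signalling, summed to 70.8, 51.9 and 63.0 CPM against 50.7, 56.1 and 61.3 CPM. Singly, Trim30a (the more abundant per length, at 12.2 CPM per kilobase in wild-type cells) measured 58.2, 42.6 and 49.8 CPM against 38.8, 43.7 and 48.9 CPM, with a difference of -0.20 on the log2 scale (SE 0.15, edgeR adjusted p = 0.598), and Trim30d had 0.06 (SE 0.20). Phf11b and Phf11d, which encode zinc-finger proteins of the nucleus, had fold changes near 0, at -0.13 (SE 0.20) and -0.08 (SE 0.20). Phf11b, the more abundant per length at 72.5 CPM per kilobase, measured 103.9, 58.4 and 95 CPM in wild-type and 67.2, 87.5 and 81.0 CPM in knockout libraries, with knockout values inside the wild-type range (edgeR adjusted p = 0.833). Both pairs lie side by side, on chromosomes 7 and 14.

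Of the membrane and secreted members, Ifitm3 was by far the most abundant gene of the 40 per length, at 871 CPM per kilobase of exon in wild-type cells, followed by Ifi27l2a at 269. IFITM3 stiffens endosomal membranes against viral fusion. It measured 701.7, 434.2 and 636.3 CPM in wild-type and 534.0, 836.9 and 793.3 CPM in knockout libraries, which overlapped (log2 fold change 0.29, SE 0.20, edgeR adjusted p = 0.551). Bst2, the tetherin that holds budding virions at the cell surface, had 0.41 (SE 0.16, edgeR adjusted p = 0.238), and Lgals3bp, a secreted glycoprotein that binds galectin-3, had 0.32 (SE 0.11, edgeR adjusted p = 0.185). Lgals3bp went from 300.5, 249.5 and 314.2 CPM to 367.8, 350.4 and 357.4 CPM, so its groups were apart by a small margin.

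Siglec1, a sialic-acid receptor of macrophages, lay on the lower side, with 5.17, 5.76 and 4.05 CPM in wild-type and 4.09, 3.28 and 2.34 CPM in knockout libraries (log2 fold change -0.62, SE 0.33, edgeR adjusted p = 0.407). It is the one member on the chromosome of Mavs, 0.1 Mb away, so in these hosts the genotype at its locus cannot be told apart from the deletion.

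Of the remaining 8 genes none passed, and 4 lay on each side of 0. Ifi47, an interferon-inducible GTPase, measured 131.4, 75.3 and 130 CPM in wild-type and 160.8, 179.7 and 179.5 CPM in knockout libraries (log2 fold change 0.63, SE 0.19, edgeR adjusted p = 0.124). Xaf1, a promoter of apoptosis, had 0.50 (SE 0.15) and Samd9l, a brake on cell growth, 0.36 (SE 0.15). Rtp4, which limits the response to interferon, had 0.05 (SE 0.28). Stat2, at once a target and the transcription factor of the pathway, had -0.06 (SE 0.23). Ifi27l2a measured 176.0, 84.9 and 113.1 CPM against 70.3, 98.2 and 115.9 CPM (log2 fold change -0.40, SE 0.25), Ifi35 had -0.23 (SE 0.16) and the scarce Ifi44 -0.25 (SE 0.39).

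Wild-type replicate 2 stood apart from the other libraries for these genes, which bears on each fold change above. It was the lowest of the 6 libraries for 26 of the 40 members (65%, against 18.8% of all tested genes) and the lowest of the 3 wild-type libraries for 34 (85%, against 33.1% of all genes). The median member had a log2 level 0.47 lower there than in the mean of the other wild-type libraries. Oas2 stood at 34.6% of that mean, Oasl1 at 41.2% and Rtp4 at 49.3%, and Ifit3b had 3 counts. The exceptions were Parp12 at 191.7%, Siglec1 at 125%, Ifi44 at 109.7% and Mx2 at 103.6%. The summed level of the 40 was 2487, 1694 and 2372 CPM in wild-type and 2317, 2803 and 2619 CPM in knockout libraries. The spread within the wild-type group exceeded that within the knockout group for 31 members (77.5%, against 56% of all genes).

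**Figure D4:**
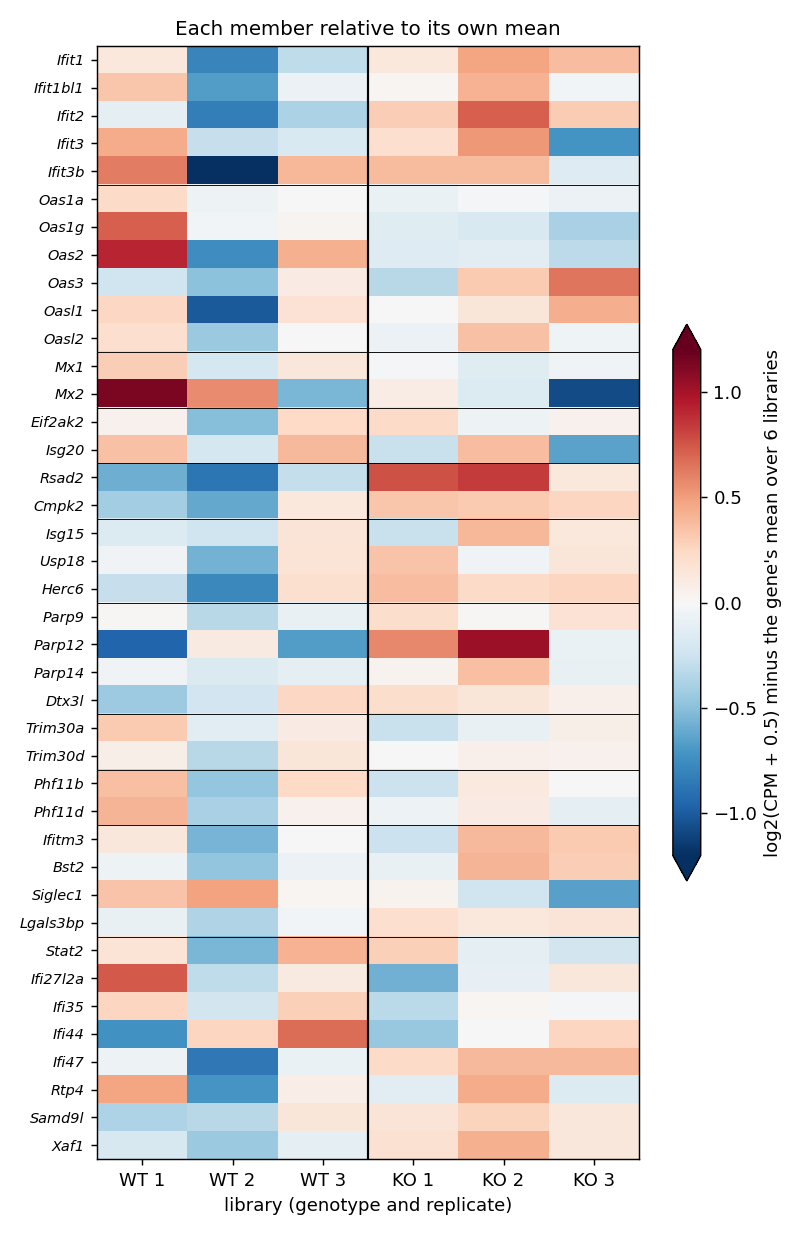
Heat map of log2(CPM + 0.5) of each member (rows, in family order) minus its mean over the 6 libraries (columns); red is above and blue below the gene's own mean. The column of wild-type replicate 2 is blue for 36 of 40 genes, and Rsad2 and Ifit2 show red across the knockout columns.

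Without wild-type replicate 2 the picture shifted downward. The median log2 fold change of the 40 became -0.02, the number above 0 fell from 26 to 19, and no member passed (edgeR, unadjusted p below 0.05 for 5 higher and 5 lower). Rsad2 then differed by 1.05 on the log2 scale (edgeR adjusted p = 0.0561) and Ifit2 by 0.69 (edgeR adjusted p = 0.0959). Signs turned for Ifit3, Ifit3b, Oasl1, Oasl2, Eif2ak2, Trim30d and Rtp4. Leaving out other libraries also removed calls, and 1 was gained: Cmpk2 passed without wild-type replicate 3 (edgeR adjusted p = 0.0488). Over the 6 such fits Rsad2 ranged from 1.05 to 1.38 (edgeR adjusted p from 0.0218 to 0.0814) and passed in 2, without wild-type replicate 3 or knockout replicate 3. Ifit2 ranged from 0.69 to 1.05 (edgeR adjusted p from 0.0438 to 0.171) and passed in 1, without wild-type replicate 1. For 29 members the sign was the same in all 6, positive for 19, among them Rsad2, Ifit2, Ifit1, Cmpk2, Parp12, Herc6, Usp18, Isg15 and Ifi47, and negative for 10: Oas1a, Oas1g, Oas2, Mx1, Mx2, Isg20, Trim30a, Siglec1, Ifi27l2a and Ifi35.

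**Figure D5:**
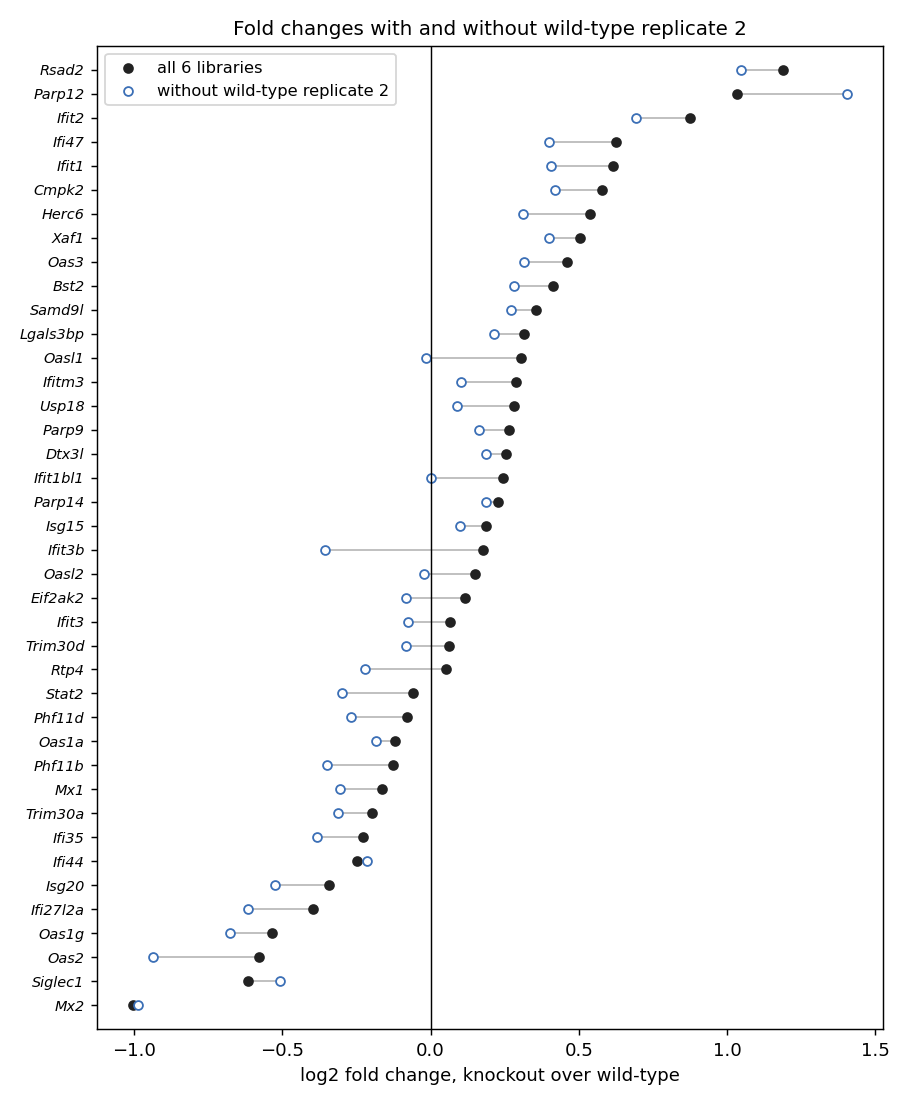
Log2 fold change (x axis) of each member with all 6 libraries (filled) and without wild-type replicate 2 (open), genes in order of the first. The open points lie left of the filled ones for 36 of 40 genes, and Rsad2, Parp12 and Ifit2 keep the largest values.

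Transcripts of the interferons themselves were scarce. Of 16 interferon genes looked up by symbol, 5 had a row in the count table. Ifnb1 had 7, 4 and 5 counts in wild-type and 7, 0 and 0 counts in knockout libraries. Ifna4 had 5 counts in knockout replicate 2 and none elsewhere, Ifna13 had 1 count in all and Ifnk 19. Ifng, the interferon of T and natural killer cells and the sole interferon gene abundant enough to be tested, had 51, 0 and 4 counts in wild-type and 18, 17 and 39 counts in knockout libraries (log2 fold change 0.88, SE 1.11, edgeR adjusted p = 0.785). It was at 0 in wild-type replicate 2. Of 5 tested natural killer markers all were lowest of the wild-type group in that library, with Gzma at 3 counts there against 181 and 148, and the summed level of that list was 71.7 to 110.0 CPM in the wild-type group against 71.7 to 96.2 CPM. Klrk1 made up most of that sum, and without it the list stood at 12.1, 1.55 and 13.4 CPM in wild-type and 13.2, 18.8 and 9.73 CPM in knockout libraries. All 6 cDC1 markers were lowest of the wild-type group in the same library too (median log2 difference from the other wild-type libraries -0.62). Of 7 monocyte markers, 5 lay below the mean of the other wild-type libraries (median -0.62). The monocyte sum without Chil3 was nevertheless highest there, at 5771 CPM against 3930 and 4529 CPM. Fibroblast (35.62 against 18.46 and 18.54 CPM) and tumour epithelial sums (540.2 against 362.1 and 454.7 CPM) were also highest of the wild-type group there. The cDC2, T cell, B cell and endothelial sums were lowest of that group there. The part of these cells in the low values of wild-type replicate 2 was not tested.

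None of 12 tested genes of the receptor, kinases and transcription factors passed in edgeR. At an unadjusted p below 0.05, 3 were higher, and DESeq2 called 2 of the list higher and limma-voom 0. Irf5 and Irf8, those with the highest mean CPM, had log2 fold changes of -0.16 (SE 0.10) and 0.21 (SE 0.20). Among 10 listed regulators of the response Sirpa rose (0.56, SE 0.10, edgeR adjusted p = 0.0225) and passed in 3 of the 6 fits that left out a library. It is a receptor encoded on the chromosome of Mavs, so the genotype at its locus cannot be told apart from the deletion. The other 9 did not pass in edgeR. Socs1 came nearest (1.09, SE 0.26, edgeR adjusted p = 0.054), with every knockout library above every wild-type library. At an unadjusted p below 0.05 in edgeR, 2 of the list were higher and 1 lower. DESeq2 and limma-voom each called 2 higher and 0 lower. Of 13 RNA sensing genes Mavs itself fell and 12 did not pass.

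Genes induced mainly by interferon-gamma rose in part. Of 24 tested 9 rose (37.5%, beside 1.76% of all tested genes) and none fell (none at an unadjusted p below 0.05, nor by DESeq2 or limma-voom). The median log2 fold change was 0.76. Each of the 24 stood lower in wild-type replicate 2 than in the mean of the other wild-type libraries. The serpins Serpina3f (1.29, SE 0.19) and Serpina3g (1.08, SE 0.16), the PD-1 ligand Cd274 (1.15, SE 0.18) and the guanylate-binding protein Gbp2 (1.21, SE 0.21) had the smallest p. All 4 still passed without wild-type replicate 2 (edgeR adjusted p from 0.0153 to 0.0285), and over the 6 fits that left out a library Serpina3f and Serpina3g passed in 5, Cd274 in 3 and Gbp2 in 2. Of the other 5 called, Nos2 and Iigp1 passed without wild-type replicate 2, whereas Gbp7, Cxcl9 and Gbp3 did not (edgeR adjusted p = 0.0832, 0.1 and 0.0885), and Gbp3 passed in 0 of the 6 fits. Of 57 tested further interferon-stimulated genes outside the 40, 4 rose (7.02%) and none fell (3 were lower at an unadjusted p below 0.05, and DESeq2 called 1 lower): Slfn1 (1.13, SE 0.19), Gbp2, Ly6a (1.08, SE 0.20) and Ifi204 (0.79, SE 0.16). Over the 6 fits Slfn1 passed in 4, Ly6a in 3 and Ifi204 in 1, and Ifi204 did not pass without wild-type replicate 2 (edgeR adjusted p = 0.0581). The median of that list was 0.10. The difference between these lists and the 40 members was not tested, and the lists share genes such as Gbp2. Like the 40 members, the lists were chosen with earlier results of these data known, so their shares are descriptions and no independent support.

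Marker lists of other cells moved with genotype in part. The summed monocyte list stood at 5598 to 6376 CPM in the wild-type group against 8495 to 17030 CPM, carried by Chil3, with 1 of 7 genes called. Without Chil3 its sums overlapped, at 3930 to 5771 against 4563 to 5262 CPM. Of the 7 genes, 3 had a log2 fold change above 0, and the median was -0.17. The neutrophil list had 55.5 to 57.1 against 92.9 to 98.6 CPM through Mmp8, 1 of 4 tested, while S100a9 and Ly6g had at most 3 counts in any library. The B cell list had 31.5 to 52.3 against 10.8 to 12.4 CPM through Ighm, 1 of 2 tested. The endothelial list had 41.1 to 87.6 against 106.3 to 208.8 CPM through Flt1, 1 of 3 tested, with Cdh5 at 0 in all knockout libraries. Without Flt1 its sums overlapped (24.1 to 44.1 against 39.3 to 71.6 CPM). Neutrophil sums without Mmp8 and B cell sums without Ighm did not overlap. The cDC2 list had 2198 to 2462 against 2503 to 4246 CPM, mostly Mgl2, which did not pass (edgeR adjusted p = 0.14). Without Mgl2 it stood at 654.1 to 739.7 against 879.6 to 911.2 CPM. Among the 6 genes Cd209a was lower and Sirpa higher, 2 had a log2 fold change above 0, and the median was -0.35. Of 6 cDC1 markers Xcr1 and Wdfy4 were lower, 5 had a log2 fold change below 0, and the median was -0.76. Their summed level overlapped (401.7 to 699.7 against 483.5 to 523.9 CPM) and was mostly Irf8, without which it was 106.3 to 163.4 against 53.2 to 74.5 CPM. The T cell, tumour epithelial and fibroblast sums overlapped. Plasmacytoid dendritic cells are the chief interferon producers: without Bst2, their list stood at 54.5 to 67.4 against 46.4 to 67.6 CPM, nearly all of it Tcf4, with none of 4 tested genes called and Siglech at 3 to 28 counts. The part of these cells in the members' values was not tested.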

How the data were processed

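Bulk RNA sequencing gave 1 library per sample, for 3 wild-type and 3 MAVS knockout hosts' samples. The deposited table holds whole-number read counts per Ensembl mouse gene, not normalized. HISAT2, HTSeq and DESeq2 and the mm10 build are named in the submitters' processing notes, without role, version or settings. Identifiers were matched to GENCODE M21 (26383 of 26519). Genes were filtered with filterByExpr (minimum count 10, minimum total 15), scaled by the trimmed mean of M values and tested with edgeR 4.0.16 in R 4.3.3 by the quasi-likelihood F test, with Benjamini-Hochberg adjustment over 12580 genes and a threshold of 0.05. The SE is the log2 fold change divided by the root of F. CPM means TMM-scaled counts per 1000000. Alternatives used DESeq2 1.42.0, limma 3.58.1, other scalings and filters, a replicate block, summed near-identical copies and each library left out. The members and lists were chosen with earlier results of these data known. All members are named; those that passed and the most abundant of each subfamily per length get full values.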

Additional observations from a re-analysis of the deposited data

How the results depend on the processing

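Of the 2 members called, Rsad2 passed in all 8 other full fits and Ifit2 in 6, failing with library sizes alone (edgeR adjusted p = 0.07) and with the replicate block (0.0515). Members called numbered 1 with library sizes alone, 5 with no filter and 4 by DESeq2's Wald test. All genes called numbered 354, against 924 with no filter and 778 by DESeq2. Genes called higher numbered 101, 531 and 437, and lower 331, 393 and 341, with library sizes alone, no filter and DESeq2. Called genes of the pathway lists numbered 14, against 37 with no filter, 26 by DESeq2 and 23 with the replicate block. With each group's mean taken off, same-numbered libraries correlated at 0.0299, 0.106 and -0.0264, and other pairs across the groups at -0.139 to 0.128. With 3 libraries per group these values cannot tell whether same-numbered libraries were handled together, and the labels do not say. The replicate block gave 414 calls over all genes. Library sizes alone moved the median of all genes to -0.17 and that of the 40 to 0.02, and with that shift of all genes Ifit3 (-0.10), Oasl2 (-0.018), Eif2ak2 (-0.047), Trim30d (-0.10) and Rtp4 (-0.11) turned negative.

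Leaving out 1 library at a time gave 38 to 289 genes called (higher 23 to 188, lower 15 to 101), 0 to 2 members, 1 to 19 pathway genes and a median from -0.02 to 0.27. No member passed without wild-type replicate 2, knockout replicate 1 or knockout replicate 2 (edgeR, unadjusted p below 0.05 for 10, 11 and 8). Signs turned, over these fits, for Ifit3 (-0.22 to 0.35), Ifit3b (-0.36 to 0.65), Oasl1 (-0.015 to 0.51), Oasl2 (-0.022 to 0.29), Eif2ak2 (-0.082 to 0.29), Trim30d (-0.082 to 0.16), Phf11b (-0.35 to 0.021), Phf11d (-0.27 to 0.12), Stat2 (-0.30 to 0.15), Ifi44 (-0.58 to 0.12) and Rtp4 (-0.22 to 0.33). The cause of these changes was not tested. Depth limits Ifit3b most, with 191 counts in all.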
